A study of Mus musculus with 39 samples.

Results

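Integrins and laminins are the 2 partners of one attachment system, and their subunit genes were followed here in the gubernaculum and testis of mice whose Insl3 gene was replaced or lost. The members were all genes of the first deposited table whose symbol is Itga followed by digits or lower-case letters, Itgb followed by a digit from 1 to 8, or Lam followed by a, b or c and 1 digit, joined to the second table on the Ensembl identifier. The rule gave 37 genes of the 21561 that both tables hold, and it used no measured value. They were 18 integrin alpha genes, 8 integrin beta genes, and 11 laminin genes (5 alpha, 3 beta and 3 gamma).

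RNA was sequenced from 39 libraries, 3 biological replicates in each of 13 groups. The gubernaculum was taken from wild-type (WT) and INSL3-KI males at postnatal days 8 and 23 (P8, P23) and from INSL3-KO males at P8. Testes of all 3 genotypes were taken at both of these ages, and those of WT and INSL3-KI also at P40. INSL3-KI mice are C57BL/6J homozygotes in which the minke whale INSL3 coding sequence stands at the mouse Insl3 locus under its native regulatory elements; they derive from targeted embryonic stem cells whose neo cassette was removed by Cre. INSL3-KO mice lack Insl3, and how that allele was made is not given in the sources used here. INSL3 is the Leydig cell hormone that drives growth of the gubernaculum, the ligament and muscle that draws the fetal testis down, and testes without its signal stay in the abdomen. Genotype and testis position cannot be told apart in the older testis groups. Nothing in the labels says whether tissue of several mice was pooled, so p-values measure the spread between these libraries.

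Total counts ran from 29861447 to 45260372 per library. Mouse Insl3 had 2722 to 3524 counts in WT testis at P8 and 15 to 33 in INSL3-KI, but 613 to 906 in the P8 testis libraries labelled INSL3-KO, so Insl3 reads were reduced and not absent there; at P23 the testis libraries labelled INSL3-KO had 0 to 5. All INSL3-KO libraries and WT testis at P23 stand in the second table and the others in the first. Where a comparison crosses the tables (INSL3-KO against WT or INSL3-KI at P8, INSL3-KI against WT in P23 testis), table and genotype cannot be told apart. For 6 members, Itga1, Itga2, Itga2b, Itga6, Lama5 and Lamc1, the length implied by the deposited counts and FPKM differs by over 10% between the tables, and counts of called members are given without them where a comparison crosses the tables. Itga1, Itga4, Itga7, Itga10, Itgad and Itgam share exonic bases with another protein-coding gene in GENCODE vM21, and their counts are uncertain by that much. Markers of the gubernaculum's muscle moved strongly with genotype, and their values stand beside the results they accompany. Adipocyte markers in P8 gubernaculum summed to 222 to 242 FPKM in WT, 935 to 1281 in INSL3-KI and 2167 to 2400 in INSL3-KO. In P23 gubernaculum they summed to 194 to 322 in WT and 579 to 14567 in INSL3-KI, with 0 of 8 called. Their part in the members' changes was not tested. In this bulk RNA, fewer cells of a type and less RNA per cell cannot be told apart.

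Integrins are receptors made of 1 alpha and 1 beta chain that span the plasma membrane and tie the matrix outside to actin inside. Laminins are cross-shaped molecules of an alpha, a beta and a gamma chain that polymerise into the sheet of a basement membrane, the layer under epithelia and around muscle fibres, vessels and seminiferous tubules. Beta 1 pairs with most alpha chains. Alpha 3, 6 and 7 make laminin receptors with it, alpha 1, 2, 10 and 11 make collagen receptors, alpha 5, 8 and v recognise the RGD motif of fibronectin and related proteins, and alpha 4 and 9 bind ligands such as VCAM1 and tenascin. Beta 2 and beta 7 and their alpha partners are largely leukocyte proteins. In muscle, alpha 7 beta 1 on the fibre surface holds the laminin that carries the alpha 2 chain, and in epithelia alpha 6 beta 4 holds a laminin with the alpha 3 and beta 3 chains in hemidesmosomes.

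In WT mice at P8 the same beta chains, Itgb1 and Lamb1, stood high in both tissues, while different alpha chains led. On a scale of RPKM (reads scaled to library size and to each gene's exonic length, computed from the counts), Itgb1, the common beta chain, was the highest member at 220.0 ± 4.997 (SD, n = 3) in gubernaculum and 148 ± 14.03 in testis. Itga5, the fibronectin receptor chain, was the highest alpha chain of the gubernaculum at 38.2 ± 3.42, with Itga9 at 30.9 ± 4.46 and Itga7 at 22.2 ± 3.52. That order turns on the gene length: in the deposited FPKM Itga7, at 39.4 ± 4.78, stood above Itga5, at 34.4 ± 2.92, in all 3 libraries. In testis Itga6, a laminin receptor chain that spermatogonia and Sertoli cells carry, led at 16.6 ± 1.88, above Itga9 at 10.1 ± 0.857 and Itgav at 9.19 ± 1.301, which did not differ beyond their spread. Among laminins, the widely used chains Lamc1 and Lamb1 were high in both tissues, Lamc1 at 85.9 ± 20.2 in gubernaculum and 41.2 ± 8.88 in testis, and Lamb1 at 64.4 ± 12.7 and 62.6 ± 5.08. Lama4, a chain of vessel and muscle basement membranes, led the laminin alpha chains of the gubernaculum at 19.4 ± 3.25, with Lama2 at 15.1 ± 3.68 and Lama5 at 12.2 ± 3.71, and did not differ from Lama2 beyond their spread. Lama2 led in testis at 24.4 ± 1.15, with Lama1 at 10.2 ± 0.539. Lamc3, at 40.9 ± 4.3, was level there with Lamc1, which it did not differ from beyond their spread.

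**Figure D1:**
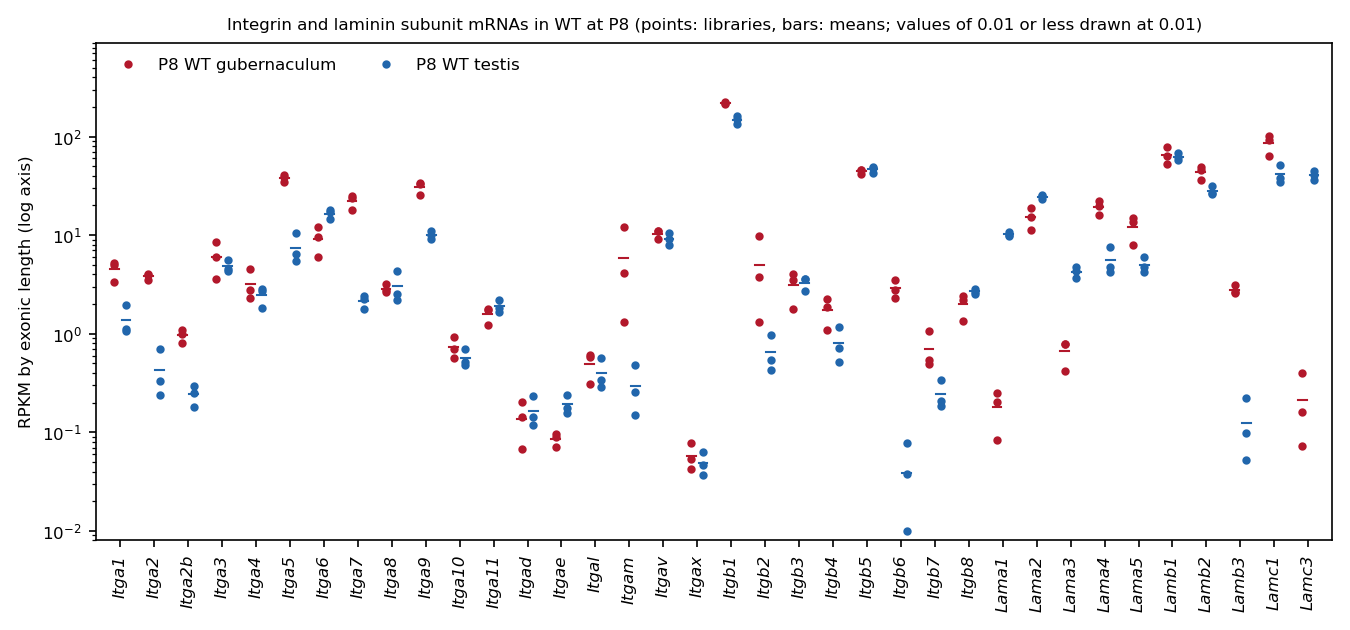
RPKM of 36 members in WT gubernaculum (red) and WT testis (blue) at P8, on a log axis, with 1 point per library and a bar at each mean. Itgb1 stands highest in both tissues, and Lama1, Lama3 and Lamc3 are the members whose testis points lie far above their gubernaculum points.

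Tested directly between the tissues, 13 of 36 members tested were higher in gubernaculum and 3 were lower, where a call needs an adjusted p under 0.01 and a fold of at least 2 in edgeR's quasi-likelihood test. Of all genes tested, 14.1% were higher and 14.3% lower. TMM scaling sets the middle of all genes near 0, and scaling by total counts alone shifted that median by -0.42 here and gave 10 members higher and 5 lower. The 3 members higher in testis were all laminin chains: Lamc3 (log2 fold change -7.58, SE 0.51, adjusted p = 2.28e-05), Lama1 (-5.81) and Lama3 (-2.68). Lamc3 encodes a gamma chain of restricted expression and had 339.6, 306 and 267 CPM (counts scaled to library size, with TMM among the libraries of a tissue and age) in WT testis and 0.956, 2.38 and 0.429 in WT gubernaculum. The 13 members higher in gubernaculum included Itgb6, the epithelial beta chain that pairs with alpha v and activates latent TGF-beta (log2 fold change 6.18, SE 0.74, adjusted p = 3.63e-04), Lamb3 of the hemidesmosomal laminin (4.48), and Itga7 of muscle (3.38). Itgb6 had 0, 12 and 24 counts in the WT testis libraries at P8. Itgam and Itgb2, the chains of a myeloid receptor, were also called higher in gubernaculum (4.3 and 2.94), but their WT gubernaculum libraries differed widely. Itgam stood at 6.46, 20 and 58.8 CPM in replicates 1, 2 and 3. Its call was lost without testis replicate 1 or 2, and that of Itgb2 without any 1 of 5 of the 6 libraries.

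At P8, INSL3-KI gubernaculum had 6 members lower and 11 higher than WT of 36 tested, against a background of 9.7% and 14.4% of all genes. INSL3-KO gubernaculum, compared with the same WT libraries, had 10 lower and 4 higher of 36, against 15.2% and 15.5%. Among the 31 members with like gene models in both tables, INSL3-KO had 9 lower and 4 higher of 30 tested. The median log2 fold change was 0.16 over the members in INSL3-KI and -0.40 in INSL3-KO, where all genes had 0.02 and 0.03. Scaling by total counts alone shifted the median of all genes by 0.32 in INSL3-KI and 0.17 in INSL3-KO, and gave 4 members lower and 12 higher in INSL3-KI and 9 and 6 in INSL3-KO.

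**Figure D2:**
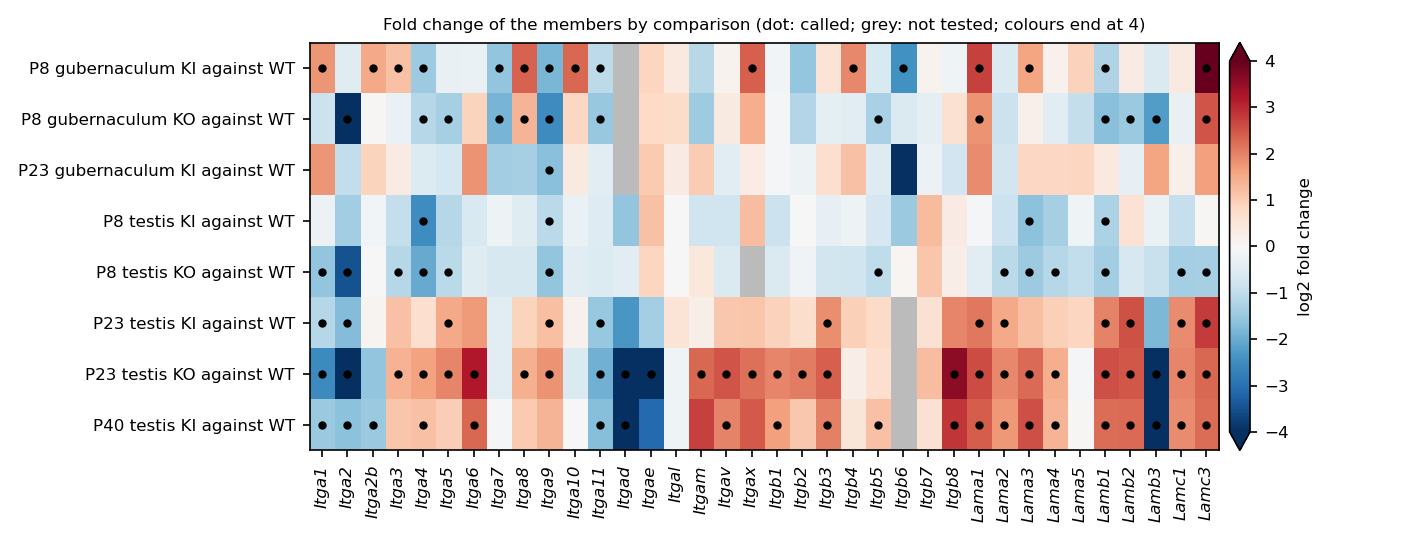
Log2 fold change of 36 members (columns) in the 8 comparisons with WT (rows), red for higher and blue for lower than WT, with a dot on each call and grey where the gene was not tested. Dots in the P8 gubernaculum rows are mixed in colour, those in the P8 testis rows are all on blue, and those in the P23 and P40 testis rows are mostly on red.

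Itga7, the laminin receptor chain of muscle fibres, had 144, 186 and 194 CPM in the WT libraries, 50.4, 61.9 and 59.8 in INSL3-KI and 47.4, 49.01 and 47.7 in INSL3-KO. Each mutant library lay below each WT library (INSL3-KI, log2 fold change -1.57, SE 0.14, adjusted p = 5.16e-05; INSL3-KO, log2 fold change -1.87, SE 0.12, adjusted p = 1.70e-05). Skeletal muscle markers fell beside it: 21 of 22 list genes were lower in INSL3-KI and 19 of 22 in INSL3-KO, and the list's summed FPKM was 17043 to 17685 in WT, 777 to 1303 in INSL3-KI and 4574 to 4911 in INSL3-KO, with Myf6 and Pax7 at 0 counts in all 3 INSL3-KI libraries. Their part in the change of Itga7 was not tested. Lama2, the laminin chain of the muscle fibre sheath, had log2 fold changes of -0.59 and -0.85 and passed the test in neither.

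Itga9, which binds tenascin and VCAM1, was lower in both mutants. It had 195, 255 and 246 CPM in WT, 61.5, 70.5 and 59.4 in INSL3-KI and 39.7, 42.2 and 39.4 in INSL3-KO, groups that do not overlap (log2 fold change -1.82, SE 0.13, adjusted p = 1.66e-05 in INSL3-KI; -2.52, adjusted p = 4.10e-06 in INSL3-KO). Itga4, its closest relative among the alpha chains, had 31.9, 37.6 and 61.1 CPM in WT, 18.9, 11.5 and 16.5 in INSL3-KI and 20.9, 19.9 and 18.6 in INSL3-KO. It was called lower in both (-1.44 and -1.14), but the INSL3-KO call was lost without WT replicate 3, which held the highest WT value, or without any 1 INSL3-KO library. Its exons share 1124 bases with Cerkl on the opposite strand. Itga11, a collagen receptor chain of fibroblasts, was also called lower in both (-1.05 and -1.51), and in INSL3-KI that call was lost without most single libraries. Fibroblast markers had a median of -0.94 in INSL3-KI and -0.55 in INSL3-KO, with 3 and 2 of 8 called lower, and their part in this was not tested.

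Lamb1, the widely used laminin beta chain, fell in both mutants. Its values were 511, 607 and 749 CPM in WT, 312, 209.7 and 264 in INSL3-KI and 192, 201 and 192 in INSL3-KO (log2 fold changes, here and below with ± SE, of -1.21 ± 0.19 and -1.68 ± 0.14). The groups did not overlap. The INSL3-KI call was lost without TMM scaling, with limma on log2(FPKM + 1) or log2(FPKM + 0.1), and with all groups of the tissue in 1 fit. Lamc1, which pairs with it, and Itgb1 passed the test in neither mutant, and Itgb1 stood at 864, 868 and 893 CPM in WT, 827, 750.1 and 782 in INSL3-KI and 829, 841 and 883 in INSL3-KO.

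Itga4, Itga9 and Lamb1 were lower than WT in the P8 gubernaculum, and in the P8 testis described further on, in both mutant lines, and Itga8 was the alpha chain with a call in the opposite direction in both P8 gubernaculum comparisons. Their promoter windows in RefSeq (GRCm38.p6) are shown as 4 examples, chosen after values were seen, of members called in the same direction in more than 1 P8 comparison, each running from 250 bases before to 50 after the annotated start, 5′ to 3′ on the gene's strand, with each E-box (CANNTG on either strand) in capitals.
Itga4, chr2:79255176-79255475, plus strand: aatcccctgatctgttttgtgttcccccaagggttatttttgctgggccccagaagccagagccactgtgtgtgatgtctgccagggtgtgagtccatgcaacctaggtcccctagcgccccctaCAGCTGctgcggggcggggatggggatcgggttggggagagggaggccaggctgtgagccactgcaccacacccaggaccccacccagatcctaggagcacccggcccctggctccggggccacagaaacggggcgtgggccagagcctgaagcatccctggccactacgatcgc
Itga9, chr9:118711442-118711741, plus strand: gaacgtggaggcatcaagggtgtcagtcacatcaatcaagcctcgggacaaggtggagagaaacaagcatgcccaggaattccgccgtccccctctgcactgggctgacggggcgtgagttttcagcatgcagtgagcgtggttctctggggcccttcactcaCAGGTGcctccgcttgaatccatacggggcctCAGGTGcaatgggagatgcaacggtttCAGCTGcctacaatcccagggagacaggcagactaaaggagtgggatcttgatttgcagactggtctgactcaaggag
Lamb1, chr12:31265043-31265342, plus strand: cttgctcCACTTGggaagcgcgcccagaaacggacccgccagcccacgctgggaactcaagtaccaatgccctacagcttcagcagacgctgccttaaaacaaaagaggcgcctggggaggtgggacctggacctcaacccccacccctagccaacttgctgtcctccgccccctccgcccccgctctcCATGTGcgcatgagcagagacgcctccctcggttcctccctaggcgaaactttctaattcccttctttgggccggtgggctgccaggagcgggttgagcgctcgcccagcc
Itga8, chr2:12301895-12302194, minus strand: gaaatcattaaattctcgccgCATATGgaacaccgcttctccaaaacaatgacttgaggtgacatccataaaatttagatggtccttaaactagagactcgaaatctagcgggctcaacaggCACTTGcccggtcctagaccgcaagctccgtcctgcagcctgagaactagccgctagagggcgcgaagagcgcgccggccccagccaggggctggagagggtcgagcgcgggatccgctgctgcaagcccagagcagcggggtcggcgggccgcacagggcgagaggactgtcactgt
The Itga9 window lies inside the gene as GENCODE vM21 draws it (chromosome 9, 118606690 to 118901003), so it stands for an internal start. The Itga4 window held 1 E-box, the Itga9 window 3, and the Lamb1 and Itga8 windows 2 each, and 72.3% of the 32851 windows in the table held at least 1. The GC box GGGCGG occurred in the Itga4 window (1) and the Lamb1 window (2), and in 35.7% of all windows. TATAAA occurred in none of these 4, nor in any of the 26 windows found for 23 members, against 13.6% of all windows. These matches are letters in a window and not binding sites.

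Epithelial and smooth-muscle-associated chains were among the members that rose in INSL3-KI. Lama3, an alpha chain of epithelial laminins, had 4.38, 8.28 and 8.25 CPM in WT, 18.6, 23.8 and 18.4 in INSL3-KI and 7.33, 9.43 and 7.56 in INSL3-KO, and was called in INSL3-KI (1.58 ± 0.26). Lamb3, which assembles with it, did not rise beside it: it had 17.2, 20.2 and 16.7 CPM in WT, 10.2, 14.1 and 10.5 in INSL3-KI and 3.31, 4.43 and 3.78 in INSL3-KO, a call in INSL3-KO (-2.23 ± 0.16) and none in INSL3-KI (-0.59, adjusted p = 0.0221). Itgb4, the hemidesmosomal beta chain, had 7.41, 12.9 and 15.4 CPM in WT, 41.2, 49.3 and 41.8 in INSL3-KI and 9.07, 8.75 and 9.11 in INSL3-KO, and rose in INSL3-KI (1.93 ± 0.25). Its partner Itga6 was not called there, at 52.7, 83.9 and 107 CPM in WT and 73.4, 56.5 and 68.6 in INSL3-KI.

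Lamc3 and Lama1, laminin chains higher in WT testis than in WT gubernaculum, rose in the gubernaculum of both mutants, while Lama3 was called in INSL3-KI alone. Lamc3 had 0.956, 2.38 and 0.429 CPM in WT, 36.95, 56.1 and 38.6 in INSL3-KI and 6.74, 8.45 and 6.66 in INSL3-KO, the largest change of any member in INSL3-KI (log2 fold change 5.15, SE 0.50, adjusted p = 7.11e-05; INSL3-KO, 2.53 ± 0.55). Lama1, an early epithelial laminin chain, had 1.94, 2.38 and 0.792 CPM in WT, 10.5, 12.1 and 10.9 in INSL3-KI and 6.52, 5.32 and 6.04 in INSL3-KO (2.75 ± 0.37 and 1.8 ± 0.39). The INSL3-KO calls of both genes were lost without WT replicate 1 or without any 1 INSL3-KO library. Simple epithelium markers moved with these chains, all 9 of 9 higher in INSL3-KI and 9 of 9 in INSL3-KO, with a summed FPKM of 18.9 to 64.3 in WT, 936 to 1138 in INSL3-KI and 409 to 441 in INSL3-KO. Genes of epididymal secretion summed to 0.283 to 2.05 in WT, 493 to 1230.0 in INSL3-KI and 680.3 to 753 in INSL3-KO, with 9 of them at 0 counts in all 3 WT libraries. The Sertoli cell list summed to 74.2 to 99.6 in WT, 599.8 to 1687 in INSL3-KI and 547 to 650.0 in INSL3-KO, but the log2 fold changes of its genes had a median of 0.23 in INSL3-KI, and of 0.76 in INSL3-KO. The part of these cells in the laminin changes was not tested.

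Itga8, which binds nephronectin and is carried by smooth muscle and mesenchyme, had 19.2, 19.7 and 23 CPM in WT, 134, 84.5 and 91.7 in INSL3-KI and 53.3, 52.6 and 53.3 in INSL3-KO. All mutant libraries lay above all WT libraries (INSL3-KI, log2 fold change 2.37, SE 0.19, adjusted p = 2.31e-05; INSL3-KO, 1.36 ± 0.09). Itga1, a collagen and laminin receptor chain rich in smooth muscle, had 60.8, 90.02 and 94.3 CPM in WT, 241, 299.7 and 266 in INSL3-KI and 46.9, 43.2 and 45.5 in INSL3-KO, and rose in INSL3-KI (1.76 ± 0.18). Smooth muscle markers summed to 575 to 788 FPKM in WT, 8065 to 9560.1 in INSL3-KI and 3616 to 3861 in INSL3-KO, with 6 and 6 of 8 higher, and their part was not tested. The collagen receptor chain Itga10 also rose in INSL3-KI (2.31 ± 0.21), as did Itga3, a laminin receptor chain of epithelia (1.18 ± 0.27), Itga2b of platelets (1.5 ± 0.25) and Itgax of dendritic cells (2.4 ± 0.49). Itgax was low throughout, with 0.198, 0.251 and 0.363 CPM in WT and 1.08, 1.23 and 1.89 in INSL3-KI. The Itga3 and Itgax calls were each lost without 5 of the 6 libraries in turn. Platelet markers summed to 39.04 to 47.6 FPKM in WT and 11.2 to 21.97 in INSL3-KI, with 1 of 2 tested lower. The leukocyte list had 3 of 11 genes lower in INSL3-KI, and Itgb2, the partner of Itgax, had -1.54 (adjusted p = 0.0598).

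Itgb6 was a member whose level separated the 2 mutants. It had 16.1, 19.2 and 24.5 CPM in WT, 4.41, 3.91 and 2.43 in INSL3-KI and 12.9, 12.9 and 14.5 in INSL3-KO, and was called lower in INSL3-KI (log2 fold change -2.43, SE 0.26, adjusted p = 1.35e-04) and not in INSL3-KO (-0.57, adjusted p = 0.0182). Itga2, a collagen receptor chain of epithelia and platelets, went the other way, with 24.6, 27.2 and 27.8 CPM in WT, 21.8, 13.7 and 19.8 in INSL3-KI and 0.489, 0.395 and 0.571 in INSL3-KO (log2 fold change -5.77, SE 0.18, adjusted p = 1.13e-06). Its gene model differs between the tables, and the second table counted it in WT testis at P23 at 8.75, 6.97 and 7.35 CPM. The part of the gene model in the INSL3-KO value of Itga2 was not tested. Itga5 (-1.32 ± 0.09), Itgb5, an RGD receptor beta chain (-1.3 ± 0.07), and Lamb2, the beta chain of synaptic and vascular laminins (-1.5 ± 0.12), fell in INSL3-KO and were not called in INSL3-KI. In the direct comparison of the mutants described below, Lamb2 was called (1.79) and Itga5 and Itgb5 were not.

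**Figure D3:**
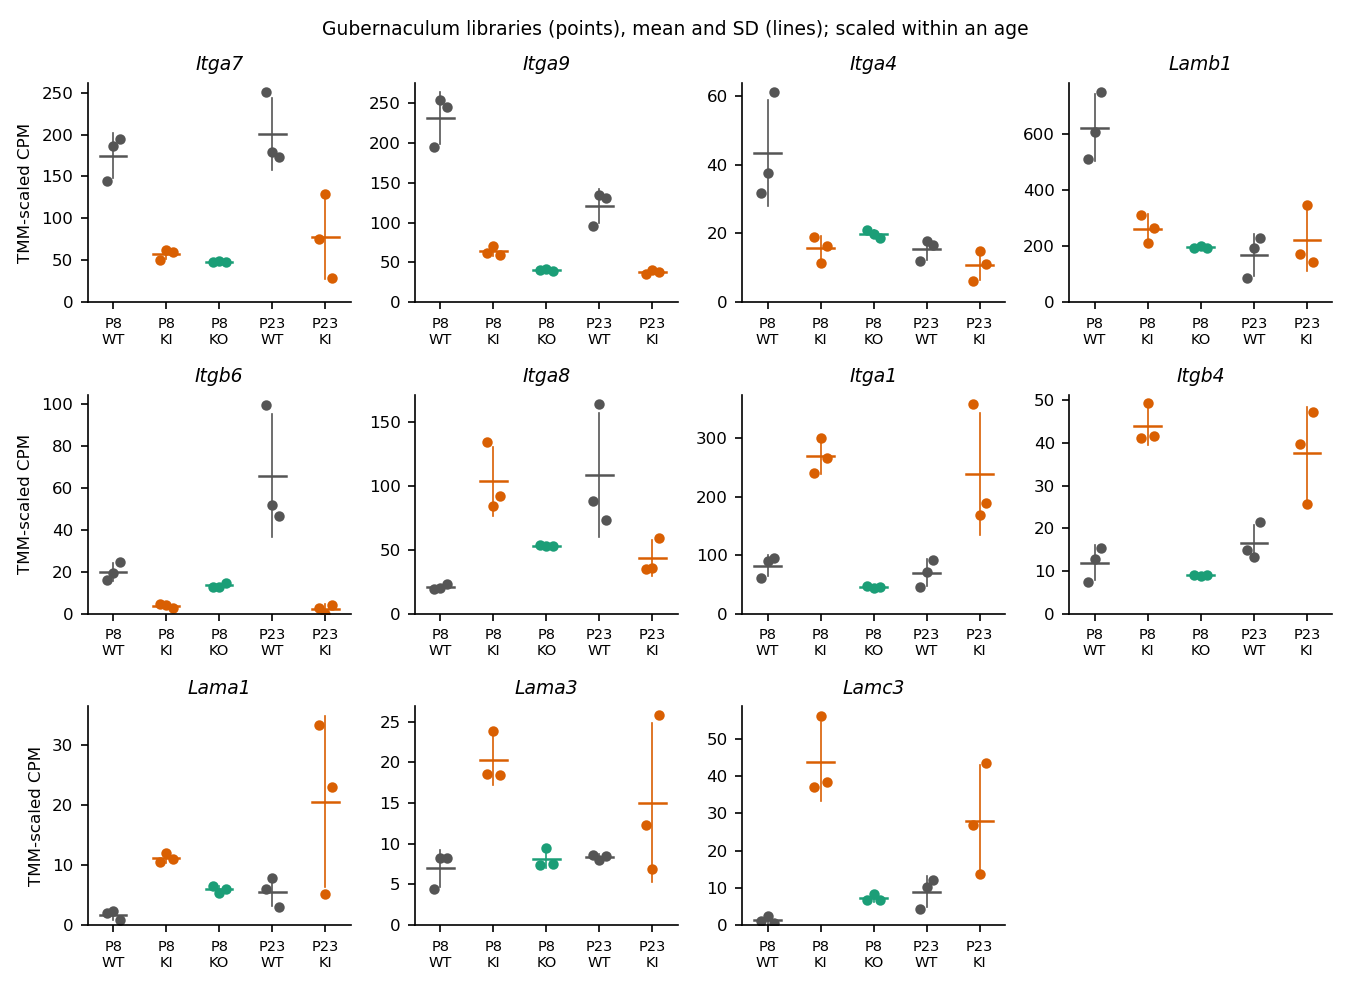
TMM-scaled CPM of 11 members in each gubernaculum library (points), with the mean and SD of each group of 3 as lines, scaled within an age. In the P8 groups Itga7, Itga9, Itga4 and Lamb1 are highest in WT, and Itga8 and the laminin chains Lama1 and Lamc3 lowest in WT, and at P23 the INSL3-KI points of Itgb6 run from 0 to 4.29.

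Compared directly at P8, INSL3-KI gubernaculum had 12 members higher and 2 lower than INSL3-KO of 36 tested, with 11.9% and 10.5% of all genes. With the 6 members of unlike gene models left out, the counts were 8 and 1 of 30. The higher members with like models included Itga3 (1.41), Itga10 (1.43), Itgb4 (2.3 ± 0.10), Lama3 (1.32), Lamb2 (1.79 ± 0.07), Lamb3 (1.59) and Lamc3 (2.59 ± 0.19). Itgb4 and Lamc3 are given by library above, and Lamb2 had 324, 322 and 307 CPM in INSL3-KI and 90.9, 97.6 and 87.01 in INSL3-KO. Lama5, whose gene model is unlike, had 245, 262 and 239 in INSL3-KI and 67.6, 73.1 and 68.1 in INSL3-KO (1.84 ± 0.07). Itgb6 was the lower member with a like model (-1.9 ± 0.23). Of the laminin genes 6 of 11 were higher, at a median of 1.19 where all genes had -0.01.

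At P23, Itga9 was called lower in INSL3-KI gubernaculum and no other member was called, of 36 tested. The background was 2.35% lower and 0.212% higher, and 14 members had an unadjusted p under 0.05. DESeq2 called 3 lower and 3 higher, and its share over all genes is not given here. Itga9 had 96.1, 135 and 131 CPM in WT and 35.6, 40.2 and 37.4 in INSL3-KI (log2 fold change -1.67, SE 0.18, adjusted p = 0.00576), a call that was lost without any 1 of 4 libraries, INSL3-KI replicates 1 and 3 and WT replicates 2 and 3, although the groups do not overlap. Itgb6 differed more in size, with 99.5, 51.6 and 46.4 CPM in WT and 2.8, 0 and 4.29 in INSL3-KI (log2 fold change -4.79, SE 1.42, adjusted p = 0.0769). INSL3-KI replicate 2 stood apart from the other INSL3-KI libraries. It had 0 counts of Itgb6, its Lama1 was below theirs (33.4, 5.19 and 23.02 CPM), and its Lama4 was above them (196, 279 and 127). Without it, 3 members were called, and without any 1 of the 4 libraries just named for Itga9, 0. The skeletal muscle list summed to 34395 to 51411 FPKM in WT and 39.9 to 871 in INSL3-KI, with 17 of 22 lower, and the simple epithelium list ran from 4.37 to 1543 among the INSL3-KI libraries. Itga7, beside it, had 250.4, 179 and 174 CPM in WT and 74.97, 129 and 28.1 in INSL3-KI and did not pass (-1.38, adjusted p = 0.135).

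Between P8 and P23 the WT gubernaculum changed 4 of 37 members, 3 higher and 1 lower at P23, with 6.17% and 4.34% of all genes. Itga8 rose (log2 fold change 2.55, SE 0.31, adjusted p = 0.00174), as did Itgb6 (1.87 ± 0.31) and the sparsely counted Itgax (3.2 ± 0.63), and Lamb3 fell (-2.04 ± 0.25). The calls of Itga8, Itgb6 and Lamb3 were lost without any 1 of the P8 libraries, which left 0 members called, and that of Itgax without 5 of 6 libraries in turn. Itga8 was also the member whose INSL3-KI effect differed between the ages: it was higher than WT at P8 and stood at 34.99, 35.8 and 59.5 CPM against 88.1, 164 and 73.6 in WT at P23, a difference of effects of -3.72 ± 0.46, adjusted p = 0.00578. Of all genes 0.194% had such a difference called lower and 0.0874% called higher, and of the 37 members 1 and 0. In that test 9 members had an unadjusted p under 0.05 in either direction. DESeq2 called 3 lower and 1 higher, and its share over all genes is not given here. The Itga8 call was lost without any 1 of 8 of the 12 libraries, namely all 6 P8 libraries, P23 INSL3-KI replicate 1 and P23 WT replicate 2.

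Genes whose proteins work with integrins and laminins were called in both directions in the P8 gubernaculum. Of 28 focal adhesion adaptors, which couple integrin tails to actin, 6 were lower and 6 higher in INSL3-KI (median 0.25), and 8 and 3 in INSL3-KO (median -0.74). Of 21 basement membrane partners such as type IV collagens, nidogens and perlecan, 4 were lower and 4 higher in INSL3-KI, and 6 and 4 in INSL3-KO. Of the integrin ligands other than laminins, 9 of 24 tested were lower and 1 higher in INSL3-KI (median -0.63), and 10 and 5 of 27 in INSL3-KO (median 0.03). Set directly against INSL3-KO, a comparison that crosses the tables, INSL3-KI had 12 adaptors higher and 2 lower, with 11.9% and 10.5% of all genes. Against WT, 9.7% of all genes were lower and 14.4% higher in INSL3-KI, and 15.2% and 15.5% in INSL3-KO.

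In the testis at P8 every called member was lower in the mutants. INSL3-KI had 4 lower and 0 higher of 37 tested, where 3.25% and 3.03% of all genes were called. The libraries labelled INSL3-KO, compared with the same WT libraries, had 13 lower and 0 higher of 36, with 8.37% and 5.44% of all genes, and 10 of 30 lower among members with like gene models. Under DESeq2, whose share over all genes is not given here, 6 members were lower and 0 higher in INSL3-KI, with 13 and 0 in INSL3-KO. In edgeR's test 19 and 26 members had an unadjusted p under 0.05 in either direction. The members' median lay at -0.49 in INSL3-KI and -0.64 in INSL3-KO, against 0.00 and -0.02 over all genes.

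Itga4 had the largest change of a called member in P8 INSL3-KI testis, from 31.4, 46.5 and 47.4 CPM in WT to 7.76, 4.52 and 9.82 in INSL3-KI and 9.098, 10.7 and 11.8 in INSL3-KO (log2 fold change -2.5, SE 0.33, adjusted p = 0.00476; INSL3-KO, -2.01 ± 0.19). Itga9 followed it down, with 87.6, 96.02 and 101 CPM in WT, 50.99, 33.98 and 48.99 in INSL3-KI and 32.6, 30.8 and 32.9 in INSL3-KO (-1.08 ± 0.17 and -1.58 ± 0.08). For both genes, each mutant library lay below each WT library. Lamb1 had 709.7, 750.0 and 806 CPM in WT, 359.6, 249.6 and 325 in INSL3-KI and 291, 283 and 296 in INSL3-KO (-1.27 ± 0.15 and -1.4 ± 0.07), and Lama3 had 57.8, 63.4 and 47.01 in WT, 23.2, 10.8 and 19.3 in INSL3-KI and 22.03, 18.6 and 22.1 in INSL3-KO (-1.65 ± 0.28 and -1.44 ± 0.12). Each of their mutant libraries also lay below each WT library. In INSL3-KI 0 members were called without INSL3-KI replicate 1 or 3 or WT replicate 2 or 3, 2 without WT replicate 1 and 3 without INSL3-KI replicate 2. INSL3-KI replicate 2, which had the lowest value of each of these 4 genes in its group, also had the highest spermatocyte markers (summed FPKM 303 to 1297 over INSL3-KI and 129 to 130.1 over WT).

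The further members lower in P8 INSL3-KO testis were Itga1, Itga2, Itga3, Itga5, Itgb5, Lama2, Lama4, Lamc1 and Lamc3. Itga2 had 2.93, 2.09 and 5.98 CPM in WT and 0.195, 0.609 and 0.192 in INSL3-KO (-3.49 ± 0.63), a call lost without INSL3-KO replicate 1 or 3, and Itga1 had 24.6, 25.3 and 42.9 in WT and 10.9, 9.63 and 11.2 in INSL3-KO (-1.57 ± 0.24). Both genes have unlike models in the tables. Lamc3, the testis gamma chain, had 339.6, 306 and 267 CPM in WT and 121, 123 and 123 in INSL3-KO (-1.33 ± 0.08), while INSL3-KI stood at 326, 278 and 323 and was not called. Lamb2 was among the few members with a positive value in INSL3-KI, at 281, 351 and 291 CPM against 199.9, 194 and 229 in WT (0.57, adjusted p = 0.0159). Itgb1 had 671, 755 and 786 CPM in WT, 426, 353 and 438 in INSL3-KI and 504, 498 and 515 in INSL3-KO, groups that do not overlap but changed by less than 2-fold (-0.86 and -0.56). Itga6 in INSL3-KO had 75.2, 164 and 159.7 CPM, so that replicate 1 lay far under its group. In the fibroblast list 3 of 8 genes were lower in INSL3-KO, with a summed FPKM of 1584 to 4587 in WT, 771 to 1295 in INSL3-KI and 1289.9 to 1329.5 in INSL3-KO. The endothelium list had 3 of 8 lower, at 70.1 to 124 in WT, 34.7 to 59.1 in INSL3-KI and 41.5 to 45 in INSL3-KO. The Leydig cell list had 4 of 6 lower in INSL3-KI and 2 in INSL3-KO, at 374 to 430.3 in WT, 96.5 to 121 in INSL3-KI and 261 to 282 in INSL3-KO. That list holds Insl3 itself, the edited gene, which was among those called lower in both (log2 fold change -6.96 and -2.12). Spermatocyte genes were higher, 4 of 8 in INSL3-KI and 5 in INSL3-KO, where they summed to 368 to 370.2. Their part was not tested. Of the basement membrane partners 5 were lower and 1 higher in INSL3-KI, and 10 and 1 in INSL3-KO, of 21, with 3.25% and 3.03%, and 8.37% and 5.44%, of all genes.

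The INSL3-KI effect at P8 was tested against tissue as well. In 12 members it was more positive in gubernaculum than in testis and in 2 more negative, of 37, with 12.9% and 8.92% of all genes. The largest positive difference was that of Lamc3, a difference of effects of 5.13 ± 0.52, and Lama3, which was called higher in gubernaculum and lower in testis, differed by 3.24 ± 0.43. The 14 calls became 9 without gubernaculum INSL3-KI or WT replicate 2, testis INSL3-KI replicate 1 or testis WT replicate 3. Itga7 (-1.36 ± 0.25) and Itgad (-5.91) were more negative in gubernaculum, and Itgad had 0 counts in all 3 INSL3-KI gubernaculum libraries, so that its fitted value depends on the prior count. The differences for Itga4, Itga9 and Lamb1 did not pass the test.

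As the WT testis matured from P8 to P40, 20 of 36 members fell and 4 rose, with 27.8% and 31.9% of all genes, at a member median of -1.52 against -0.03. Scaling by total counts alone shifted the median of all genes by -0.68 and gave 23 lower and 3 higher. Laminin genes made up 8 of those that fell, led by Lamb1 (log2 fold change -4.08, SE 0.15, adjusted p = 1.96e-07), Lama3 (-3.75) and Lamc1 (-3.44), and Itgb8, Itga4 and Itga6 were the integrins that fell furthest (-3.77, -3.6 and -2.93). Over the same interval the spermatid list rose, 8 of 8 genes, from a summed FPKM between 1.95 and 2.505 at P8 to between 9646 and 11085 at P40, and 8 of 12 Sertoli cell genes fell, from between 2721 and 3793 to between 752 and 925. The part of cell composition in the members' changes was not tested. The 4 members that rose were Itgae (log2 fold change 6.31, SE 0.21, adjusted p = 1.03e-07), Itgad (4.78 ± 0.32), Lamb3 (3.39 ± 0.49) and Itga1 (1.12 ± 0.23).

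In the mutant testes at P23 and P40 most of the called members were higher than in WT. INSL3-KI at P23 had 9 higher and 3 lower of 36 tested, against 8.81% and 11.8% of all genes, and 8 and 1 of 30 with like gene models. INSL3-KO at P23, against the same WT libraries and within 1 table, had 21 higher and 6 lower of 36, against 31.1% and 33.4%. INSL3-KI at P40 had 15 higher and 6 lower of 36, against 25.6% and 22.1%. The medians over the members were 0.90, 1.53 and 1.13 in these comparisons, while those over all genes were 0.08, 0.06 and 0.09. Scaling by total counts alone shifted the latter by 0.47, 0.64 and 0.61 and gave 18 members higher and 2 lower in INSL3-KI at P23, 23 and 6 in INSL3-KO, and 19 and 4 in INSL3-KI at P40. The 12 calls of INSL3-KI at P23 became 5 without INSL3-KI replicate 1, 17 without INSL3-KI replicate 3, and 1 without any 1 WT library, which was Lamc3 each time.

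Most laminin genes, whose products build the wall of the seminiferous tubule, were higher in each. Lamb1 had 23.1, 23.5 and 22.6 CPM in WT, 81.4, 70.1 and 122 in INSL3-KI and 144, 134 and 131 in INSL3-KO at P23, and 31.5, 27.9 and 39.4 in WT and 111, 174 and 184 in INSL3-KI at P40 (P40, log2 fold change 2.25, SE 0.25, adjusted p = 5.32e-04). Lama1 went from 14.8, 11.98 and 14.9 CPM in WT to 47.2, 45.6 and 85.4 in INSL3-KI and 83.2, 79.9 and 89.6 in INSL3-KO at P23, and from 21.4, 21.4 and 22.5 to 85.3, 131 and 133 at P40 (P40, 2.42 ± 0.20). Every mutant library lay above every WT library of its age for both genes. Lamc3 had 23.8, 23.4 and 19.1 CPM in WT, 128, 122 and 202 in INSL3-KI and 109, 107 and 110.5 in INSL3-KO at P23, and rose by 2.79 ± 0.26 and 2.3 ± 0.09 there and by 2.25 ± 0.32 at P40, on the log2 scale. Lamb2 had 31.5, 35.9 and 38.5 CPM in WT, 178, 152 and 285 in INSL3-KI and 201, 196 and 194 in INSL3-KO at P23. All mutant libraries lay above WT for these chains too. Lamb2 rose by 2.56, 2.48 and 2.25, Lama2 by 1.5, 1.93 and 1.74, and Lamc1, whose gene model differs between the tables, by 1.9, 1.96 and 1.9. Lama3 and Lama4 were called higher in INSL3-KO at P23 and in INSL3-KI at P40, where Lama3 had 3.17, 2.93 and 3.06 CPM in WT and 11.5, 21.9 and 20.7 in INSL3-KI (2.56 ± 0.28), whereas Lama5, a chain of epithelia and vessels, was called in none.

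Among integrins, Itgb1 had 92.3, 84.6 and 88.6 CPM in WT, 146, 129.9 and 221 in INSL3-KI and 351, 328 and 346 in INSL3-KO at P23, and 83.2, 74.4 and 105 in WT and 212, 302 and 306 in INSL3-KI at P40. It was called higher in INSL3-KO at P23 and in INSL3-KI at P40 (1.95 ± 0.05 and 1.64 ± 0.22). Itgb8, which with alpha v activates latent TGF-beta, had 1.11, 1.73 and 2.21 CPM in WT, 5.28, 3.86 and 10.1 in INSL3-KI and 18.4, 20.9 and 20.7 in INSL3-KO at P23, and 1.66, 0.943 and 3.17 and 10.01, 17.4 and 14.9 in WT and INSL3-KI at P40. Its groups do not overlap at either age, and it was the integrin with the largest rise in INSL3-KO (log2 fold change 3.57, SE 0.20, adjusted p = 5.21e-08; P40, 2.86 ± 0.47). Itga6 had 16.9, 9.48 and 9.71 CPM in WT and 112, 107 and 118 in INSL3-KO at P23, and 16.6, 15.3 and 20.9 in WT and 64.6, 101 and 94.7 in INSL3-KI at P40. It rose in both (3.22 ± 0.19 and 2.3 ± 0.22), as did Itgav (2.51 ± 0.08 and 1.98 ± 0.31) and Itgb3, another partner of alpha v (1.86 in INSL3-KI at P23, 2.4 in INSL3-KO and 2.02 at P40). The leukocyte chains Itgam, Itgb2 and Itgax were called higher in INSL3-KO at P23 (2.3, 2.05 and 2.21), where 9 of 11 leukocyte markers were higher and their summed FPKM was 19.3 to 21.3 in WT and 169.9 to 187 in INSL3-KO.

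**Figure D4:**
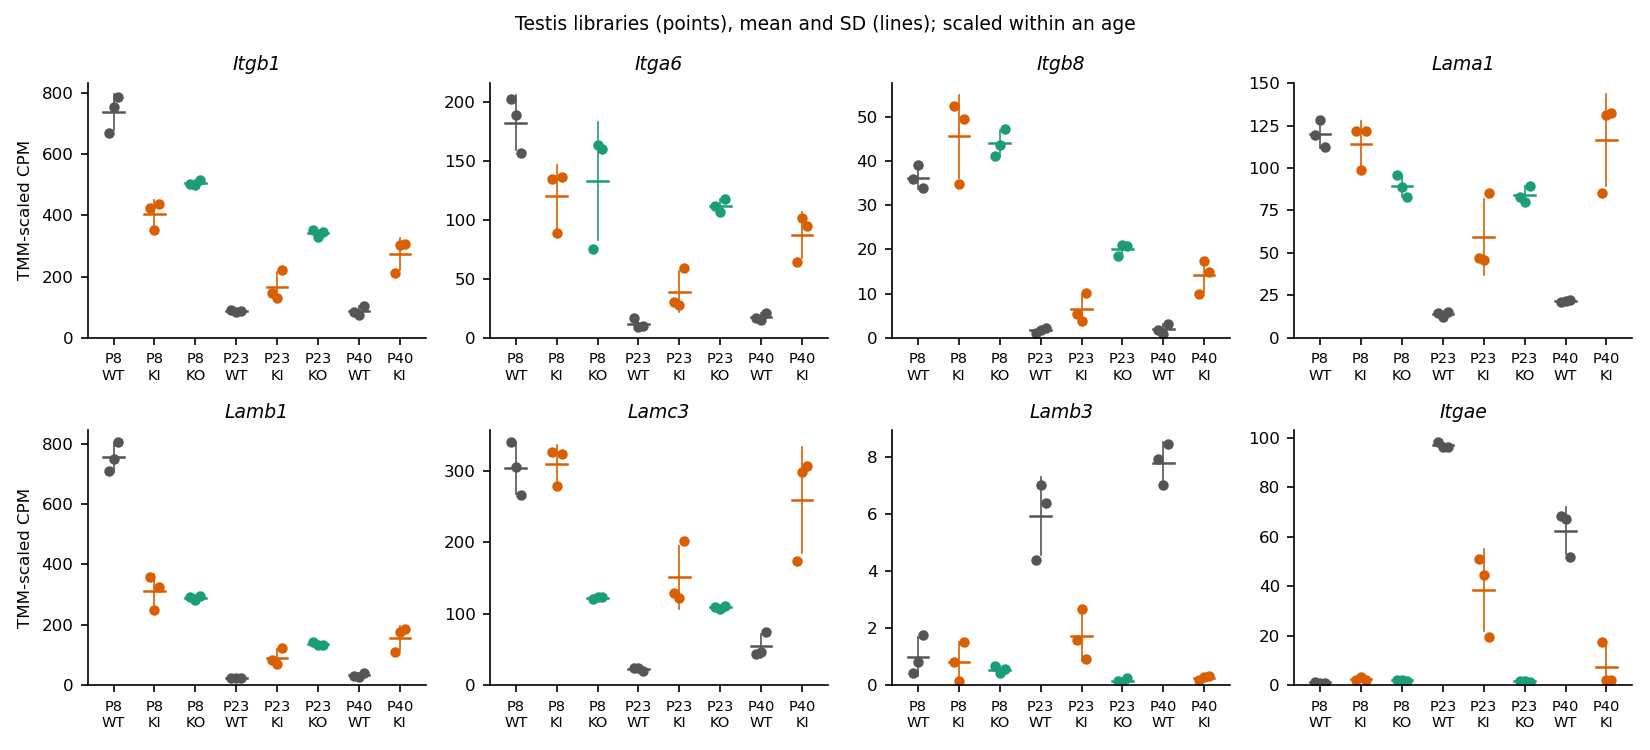
TMM-scaled CPM of 8 members in each testis library (points), with the mean and SD of each group of 3 as lines, scaled within an age. At P23 and P40 the mutant points lie above WT for Itgb1, Itga6, Itgb8, Lama1, Lamb1 and Lamc3, and below WT for Lamb3 and Itgae.

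Spermatid transcripts were lower in the same libraries, with 6 of 8 spermatid genes called lower in INSL3-KI and 8 in INSL3-KO at P23 and 8 at P40. The spermatid list summed to 13485 to 15751 FPKM in WT, 61.5 to 761 in INSL3-KI and 12.5 to 15.2 in INSL3-KO at P23, and to 9646 to 11085 in WT and 11.4 to 52.8 in INSL3-KI at P40. Of the spermatocyte genes 0 of 8 were called lower in INSL3-KI at P23, 8 in INSL3-KO and 0 at P40. The spermatocyte list summed to 4664 to 4688 FPKM in WT, 2248 to 3935 in INSL3-KI and 157 to 164 in INSL3-KO at P23. At P40 it summed to 3821 to 4152 in WT and 437 to 2211 in INSL3-KI, so the absence of calls there does not show that its level was kept. Of the spermatogonia genes 2 were higher and 1 lower in INSL3-KI at P23, 2 and 3 in INSL3-KO, and 2 and 0 at P40, of 8. All 12 of 12 Sertoli cell markers were higher in INSL3-KO at P23 and 12 of 12 in INSL3-KI at P40, at medians of 2.73 and 2.34, which are above the laminin medians of 1.96 and 1.9 and the integrin medians of 1.38 and 1.04. Sertoli cell FPKM summed to 752 to 925 in WT and 3815 to 6077 in INSL3-KI at P40. The part of cell composition was not tested. INSL3-KI replicate 3 at P23 and replicate 1 at P40 stood apart from their groups in germ cell markers.

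A smaller set of members went the opposite way. Itgae, which in leukocytes pairs with beta 7 to bind E-cadherin, had 98.1, 96.1 and 96.4 CPM in WT, 50.9, 44.4 and 19.5 in INSL3-KI and 1.54, 1.704 and 1.14 in INSL3-KO at P23 (log2 fold change -6.05, SE 0.11, adjusted p = 1.10e-11). At P40 it had 68.5, 67.2 and 51.7 in WT and 17.5, 1.86 and 2.22 in INSL3-KI (-3.12, adjusted p = 0.0205), where INSL3-KI replicate 1 stood above the other INSL3-KI libraries. Haspin, a kinase gene of germ cells that lies inside Itgae on the opposite strand, had 32432 to 34351 counts in WT testis at P23 and 323 to 406 in INSL3-KO, against 2702 to 2827 and 53 to 82 of Itgae. In GENCODE vM21 the exons of the 2 genes share 0 bases. The annotation and strand setting of the counting are not given in the sources used here. Whether Haspin reads entered the Itgae counts was not tested. Itgad, a leukocyte alpha chain, had 21.5, 21.1 and 17.5 CPM in WT, 3.46, 7.13 and 1.53 in INSL3-KI and 0.12, 0.104 and 0.0432 in INSL3-KO at P23 (log2 fold change -7.77, SE 0.24, adjusted p = 4.75e-10), and at P40 21.6, 19.6 and 14.3 in WT and 1.42, 0.386 and 0 in INSL3-KI (-4.93 ± 1.02), a call lost without INSL3-KI replicate 2 or any 1 WT library. It shares 70 exonic bases with Cox6a2, and others with noncoding genes, on the opposite strand. Cox6a2 had 0 to 7 counts in WT testis at P23, against 490 to 620 of Itgad. Whether reads of the noncoding genes entered the Itgad counts was not tested. Itgb7 and Itgb2, the usual partners of Itgae and Itgad, did not fall with them in INSL3-KO (1.22 and 2.05).

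Lamb3 had 4.37, 7.01 and 6.39 CPM in WT, 1.57, 2.67 and 0.927 in INSL3-KI and 0.144, 0 and 0.237 in INSL3-KO at P23, and 7.91, 7.005 and 8.43 in WT and 0.18, 0.295 and 0.314 in INSL3-KI at P40, so that it fell where its partner Lama3 rose (-5.52 ± 0.56 in INSL3-KO and -4.87 ± 0.27 at P40). The collagen receptor chains Itga1, Itga2 and Itga11 were called lower than WT in all 3 comparisons, and the first 2 have unlike gene models in the tables. Itga1 had 50.3, 52.5 and 46.4 CPM in WT and 13.1, 21.5 and 19.2 in INSL3-KI at P40 (-1.47 ± 0.20), and at P23 INSL3-KI differed from WT by -1.14 ± 0.20 and INSL3-KO by -2.54 ± 0.09 on the log2 scale. Itga2 fell most in INSL3-KO, from 8.75, 6.97 and 7.35 CPM to 0, 0.0416 and 0.281 (-6.09 ± 0.56). Itga11 stood at 9.198, 10.9 and 9.599 CPM in WT, 4.14, 3.92 and 2.41 in INSL3-KI and 2.98, 2.64 and 2.16 in INSL3-KO (-1.51 ± 0.24 and -1.93 ± 0.17), and at -1.7 on the log2 scale at P40. The platelet chain Itga2b was also called lower at P40 (-1.5 ± 0.32), a call lost without any 1 of the 6 libraries.

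The change between P8 and P40 was tested within 1 table. The INSL3-KI effect was more positive at P40 in 18 of 37 members and more negative in 3, with 23.2% and 22.5% of all genes. Lama3 had the largest positive difference of effects, 4.14 ± 0.44, and was lower than WT at P8 and higher at P40, followed by Itga4 (3.58 ± 0.47) and Lamb1 (3.45 ± 0.32), which had values of the same signs. The P40 rise of Itga4 (1.17 ± 0.28) was a call lost without 5 of the 6 libraries in turn, with the replicate block and with limma on log2(FPKM + 1). Lamb3 (-4.68 ± 1.03), Itgae (-4.37 ± 1.04) and Itga1 (-1.31 ± 0.35) were the members more negative at P40. The Itgae difference was lost with DESeq2 and without 5 of the 12 libraries in turn, and that of Itga1 without 10.

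More of the basement membrane partners were called higher than lower in these testes. Of the basement membrane partners 12 of 21 were higher in INSL3-KI at P23, 15 higher and 4 lower in INSL3-KO, and 12 and 2 in INSL3-KI at P40 (medians 1.39, 1.29 and 1.36). Of the focal adhesion adaptors 6 of 27 were higher and 4 lower in INSL3-KI at P23, 13 and 5 in INSL3-KO, and 12 and 5 at P40. Of the other integrin ligands, 6 of 26 were higher and 0 lower in INSL3-KI at P23, 17 of 26 were higher and 5 lower in INSL3-KO at P23, and 10 of 25 higher and 1 lower in INSL3-KI at P40. Beside these counts, 8.81% of all genes were higher and 11.8% lower in INSL3-KI at P23, 31.1% and 33.4% in INSL3-KO, and 25.6% and 22.1% at P40.

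Of the 37 members, 34 were called in at least 1 of the 8 comparisons with WT, and the lymphocyte chains Itgal and Itgb7, and Lama5, in none. The same share over all genes was not computed. In P23 INSL3-KO testis alone, 31.1% of all genes were called higher and 33.4% lower. Members that the filter on low counts removed were Itgad where mutant gubernaculum was compared, where no library passed 27 counts, Itgb6 in the P23 and P40 testis comparisons, where none passed 4, and Itgax in P8 INSL3-KO testis. Between WT groups it removed Itgax from the comparison of the tissues and Itgb6 from that of P40 with P8 testis. Cox6a2, which lies within Itgad on the opposite strand and is a muscle gene, had 3500 to 4340 counts in WT gubernaculum at P8 and 0 to 20 in INSL3-KI, where Itgad had 27, 20 and 9 counts in WT and 0 in all 3 INSL3-KI libraries. In P8 INSL3-KO gubernaculum Cox6a2 had 1910 to 2738 counts and Itgad 0, 0 and 2. At P23 Cox6a2 had 7391 to 12443 and Itgad 5 to 14 in WT gubernaculum, and both had 0 in INSL3-KI. Whether Cox6a2 reads entered the Itgad counts was not tested.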

How the data were processed

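RNA from gubernaculum and testis was sequenced as 150 bp paired-end reads and, per the labels, mapped with HISAT2 to GRCm38. The counting program, annotation and strand setting are not given in the sources used here. The authors deposited raw counts per gene and FPKM in 2 tables of libraries, joined here on the Ensembl identifier over 21561 shared genes. Counts of the groups compared were filtered with filterByExpr, scaled by TMM and tested with edgeR 4.0.16 (R 4.3.3) by the quasi-likelihood test, and p-values were adjusted by Benjamini-Hochberg over every gene in the fit. Calls needed an adjusted p under 0.01 with a change of at least 2-fold. Of 15 comparisons, 11 lay within 1 table. The fit was tested on simulated data.

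Gene levels were planned as the deposited FPKM of each library, but the length behind FPKM varied between libraries and tables, so levels are CPM, and RPKM by GENCODE vM21 exonic length where genes are compared. Summed levels of marker lists are deposited FPKM. Alternatives were DESeq2 1.42.0, total counts alone, no filter, limma 3.58.1 on log2 FPKM with 1 or 0.1 added, a replicate block, all groups of a tissue in 1 fit, and each library left out. Of the members, 1 is counted but not reported by name here. Any other member could be named. Values per library were planned for up to 6 called members with the largest change in each comparison and for the highest chain of each class, and those of further members were added after values were seen. The members and lists were chosen with earlier results of these data known. Promoters are from RefSeq (GRCm38.p6), and 23 of the 37 members matched. Figures were drawn with matplotlib 3.10.9. Total counts per library had a median of 36944626, and all pairs of replicates differed by more than sampling noise.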

Additional observations from a re-analysis of the deposited data

Results flagged for a closer look

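The effect of INSL3-KI was compared between ages and between tissues by an interaction term in edgeR's quasi-likelihood test, and members whose effects differed (adjusted p under 0.01, at least 2-fold) are given as a difference of log2 fold changes. Between P23 and P8 gubernaculum, Itga8 differed by -3.72, a call lost without 8 of the 12 libraries in turn.

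Between P40 and P8 testis, Itga1 (-1.31), Itgae (-4.37) and Lamb3 (-4.68) were more negative at P40. The alpha chains that were more positive at P40 were Itga3 (1.98), Itga4 (3.58), Itga5 (2.07), Itga6 (2.82), Itga9 (2.37) and Itgav (2.7). The beta chains were Itgb1 (2.43), Itgb3 (2.27), Itgb5 (1.76) and Itgb8 (2.45). The laminin chains were Lama1 (2.41), Lama2 (2.52), Lama3 (4.14), Lama4 (2.6), Lamb1 (3.45), Lamb2 (1.61), Lamc1 (2.74) and Lamc3 (2.14). The call of Itga1 was lost without 10 of the 12 libraries in turn and that of Itgae without 5. The Itga1 call was also lost with total counts alone and with limma at either pseudocount. That of Itgae was lost with DESeq2, and that of Itgb8 with limma on log2(FPKM + 1).

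Between P8 gubernaculum and P8 testis, Itga7 (-1.36) and Itgad (-5.91) were more negative in gubernaculum. Itgad had 0 counts in all 3 INSL3-KI gubernaculum libraries and at most 27 in WT, so its fitted value depends on the prior count and is no bound. The integrins that were more positive in gubernaculum were Itga1 (2.0), Itga2b (1.63), Itga3 (2.15), Itga8 (2.87), Itga10 (2.58) and Itgb4 (2.13). The laminins included Lama1 (2.82), Lama3 (3.24), Lama4 (1.5), Lamc1 (1.29) and Lamc3 (5.13). The calls of Itga2b and Lama4 were each lost without 9 of the 12 libraries in turn, that of Itgb4 without 7, that of Itgad without 5 and that of Lamc1 without 3. The Itgad call was also lost with limma and with the replicate block, and that of Itga2b with the replicate block. The Lama1 call was lost with limma on log2(FPKM + 1).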

How the results depend on the processing

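Of 203 calls of a member in a comparison, 119 were kept under every setting tried and 149 without each library in turn, and 0 changed direction. Calls lost numbered 2 with DESeq2, 20 with total counts alone, 0 with no filter, 52 and 24 with limma on log2(FPKM + 1) and log2(FPKM + 0.1), 24 with the replicate block, and 17 of 123 with all groups of a tissue in 1 fit.

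Counts of called members that moved by over 1.5 times were these. With DESeq2, P23 gubernaculum went from 1 to 6, WT gubernaculum P23 against P8 from 4 to 9, and the difference between P23 and P8 gubernaculum from 1 to 4. With total counts alone, P23 gubernaculum had 0, P8 INSL3-KI testis 2 in place of 4, P23 INSL3-KI testis 20 in place of 12, and the P23 and P8 difference 0. With limma, P8 INSL3-KI testis had 2 with either pseudocount, P8 INSL3-KO testis 5 and 8 in place of 13, the P23 and P8 difference 2 with 1 added, P23 gubernaculum 0 and P23 INSL3-KI testis 19 with 0.1 added. With all groups in 1 fit, P23 gubernaculum and P8 INSL3-KI testis had 7 each and INSL3-KI against INSL3-KO 8 in place of 14, which became 9 without the 6 members of unlike gene models, an alternative chosen after seeing the data. The shares of all genes called under these settings are not given here, and the cause of these changes was not tested.

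Replicate numbers were treated as names: correlations of same-numbered libraries ran from -0.138 to 0.463, in no comparison were all 3 over 0.1, and in none did every library correlate best with its own number. The replicate block gave 0 calls in P23 gubernaculum and in P8 INSL3-KI testis, 6 in P23 INSL3-KI testis, 2 in WT gubernaculum P23 against P8, and 0 in the P23 and P8 difference.

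Leaving out each library in turn gave 13 to 17 calls in P8 INSL3-KI gubernaculum, 11 to 17 in INSL3-KO, 0 to 3 at P23, 0 to 3 in P8 INSL3-KI testis, 10 to 13 in INSL3-KO, 1 to 17 in P23 INSL3-KI testis, 27 to 28 in INSL3-KO, 14 to 26 in P40 testis, 14 to 16 in INSL3-KI against INSL3-KO, 12 to 16 between the WT tissues, 0 to 6 and 22 to 24 between ages of WT gubernaculum and testis, 0 to 2 and 19 to 22 for the INSL3-KI effect between ages in gubernaculum and testis, and 9 to 16 for it between tissues. With 3 libraries a group, a low count of calls in P23 gubernaculum or P8 INSL3-KI testis does not show that members did not differ. Members with few counts (Itgad, Itgax, Itgb6, Itga2b) are limited by depth.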
